A study of Mus musculus with 12 samples.

Results

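The ADAM proteins are a family of membrane proteins that carry a disintegrin domain and a metalloprotease domain, and the RNA of their genes was followed here in sorted male germ cells of mice with and without Baz1a, a subunit of chromatin remodelling complexes. Members were the array probes whose gene symbol in the platform's annotation is Adam followed by a digit, which leaves out the secreted Adamts family. The rule found 65 probes for 32 genes, of 45281 probes and 19057 named genes on the array. Of these, 46 probes for 27 genes could be tested, because they were detected above background on at least 1 of the 11 arrays used, as were 28751 probes in all.

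Each array held total RNA of 1 cell type from 1 mouse, either round spermatids or pachytene/diplotene spermatocytes sorted by flow cytometry from adult testis on DNA content and chromatin. The groups were Baz1a-/- round spermatids (n = 3), Baz1a+/- round spermatids (n = 3), Baz1a-/- spermatocytes (n = 2 used) and Baz1a+/- spermatocytes (n = 3), described by the submitters as 3 littermate pairs, on a mixed C57BL/6J and FVB/NJ background. The Baz1a+/- mice are called controls, and they carry 1 copy of the allele that lacks an exon of Baz1a. The allele descends from a single embryonic stem cell clone and was made by passing a floxed allele through a Stra8-Cre male germ line, so that Baz1a-/- mice lacked the exon in the whole body. Replicate numbers are those of the labels, and the same number within a genotype is the same mouse. Which number of one genotype is the littermate of which number of the other is not given in the sources used here. Another Baz1a-/- spermatocyte array, replicate 1, was set aside by the submitters for its spermatid RNA and is left out here except where its inclusion is stated. No probe is named Baz1a in the platform's annotation, so the deletion itself was not followed on these arrays.

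Many mouse ADAM genes are transcribed mainly in the male germ line. Some of their products (ADAM1b, ADAM2, ADAM3, ADAM5, ADAM18, ADAM32) sit in complexes on the sperm surface, where fertilin, a pair of ADAM1 and ADAM2, was named for its part in sperm-egg interaction and ADAM3 is needed for sperm to pass from the uterus into the oviduct. The testases (ADAM24, ADAM25, ADAM26 and their relatives) are proteases or protease-like proteins of late male germ cells. Broadly expressed members (ADAM9, ADAM10, ADAM15, ADAM17) cut the extracellular part off other membrane proteins, as ADAM17 does for tumour necrosis factor. ADAM11, ADAM22 and ADAM23 have no protease activity and bind the LGI proteins in the nervous system, and ADAM7 and ADAM28 are known from the epididymis.

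The member genes lie in runs along the chromosomes (RefSeq gene order, assembly GRCm38.p6). On chromosome 8 the genes Adam18, Adam3, Adam5, Adam32 and Adam9 follow each other with no other protein-coding gene between them. The same is true there of Adam24, Adam25, Adam20 and Adam39, and of Adam26b, Adam26a, Adam34l and Adam34. On chromosome 12, Adam6b and Adam6a are neighbours, and 1 other coding gene lies between Adam4 and Adam21. Near-identical copies in such runs can share signal on an array, and the probe counted here as Adam26b (ILMN_2698579) carries the name Adam26a in the study's own list.

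Promoter windows of 250 bases before to 50 bases after the start were at hand for 16 of the 32 genes (RefSeq, GRCm38.p6). They are shown for 4 testase genes of the 2 testase runs on chromosome 8, because these windows share sequence, and for Adam17, the one member gene called lower in spermatids than in spermatocytes. Capitals mark the 2 runs of at least 10 bases that are present in all 4 testase windows, and the Adam17 window holds neither. The windows are chr8:40793023-40793322 (+ strand) for Adam20, chr8:40751958-40752257 (+ strand) for Adam25, chr8:43528088-43528387 (- strand) for Adam26b, chr8:43703375-43703674 (- strand) for Adam34l and chr12:21373583-21373882 (- strand) for Adam17, each written 5′ to 3′ along its gene.
Adam20: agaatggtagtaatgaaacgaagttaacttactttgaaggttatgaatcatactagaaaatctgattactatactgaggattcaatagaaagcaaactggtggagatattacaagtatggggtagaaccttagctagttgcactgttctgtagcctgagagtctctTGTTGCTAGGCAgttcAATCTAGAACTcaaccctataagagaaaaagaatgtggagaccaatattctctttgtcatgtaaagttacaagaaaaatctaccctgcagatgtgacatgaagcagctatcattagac
Adam25: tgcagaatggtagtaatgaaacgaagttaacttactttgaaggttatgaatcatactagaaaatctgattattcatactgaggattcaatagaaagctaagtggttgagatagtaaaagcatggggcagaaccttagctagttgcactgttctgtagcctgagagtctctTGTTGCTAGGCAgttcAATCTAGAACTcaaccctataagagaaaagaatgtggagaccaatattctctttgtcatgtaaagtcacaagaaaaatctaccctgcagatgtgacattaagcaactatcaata
Adam26b: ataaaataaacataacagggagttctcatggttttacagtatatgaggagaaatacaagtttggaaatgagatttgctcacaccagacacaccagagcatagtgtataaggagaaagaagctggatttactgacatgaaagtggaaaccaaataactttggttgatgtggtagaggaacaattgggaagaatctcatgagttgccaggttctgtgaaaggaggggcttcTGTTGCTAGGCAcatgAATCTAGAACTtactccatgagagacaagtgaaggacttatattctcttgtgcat
Adam34l: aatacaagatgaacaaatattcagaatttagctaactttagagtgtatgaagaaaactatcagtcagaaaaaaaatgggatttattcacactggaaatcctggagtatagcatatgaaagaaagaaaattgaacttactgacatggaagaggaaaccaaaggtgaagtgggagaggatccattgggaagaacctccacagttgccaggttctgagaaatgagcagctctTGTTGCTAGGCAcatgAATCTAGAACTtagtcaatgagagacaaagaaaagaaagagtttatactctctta
Adam17: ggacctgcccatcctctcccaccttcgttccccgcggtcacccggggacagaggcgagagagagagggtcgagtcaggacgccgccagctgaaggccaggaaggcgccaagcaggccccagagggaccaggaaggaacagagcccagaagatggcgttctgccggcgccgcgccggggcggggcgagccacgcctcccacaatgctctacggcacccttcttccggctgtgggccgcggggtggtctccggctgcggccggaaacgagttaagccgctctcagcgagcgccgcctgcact

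The windows of Adam20 and Adam25 were 93.4% identical and those of Adam26b and Adam34l 70.3% identical (global alignment), against a median of 48.1% over the 120 pairs of member windows. The windows of Adam6a and Adam6b, at 51.4%, also share a long stretch, which ends the Adam6a window and begins the Adam6b window. A global alignment of windows shifted in this way gives a low identity. The longer run, TGTTGCTAGGCA, was found in 12 of 32851 promoter windows (0.0365%, both strands) and the shorter one, AATCTAGAACT, in 15 (0.0457%). Both runs together, spaced by 4 bases, were found in the windows of 5 genes, the 4 testase genes shown and Gm45488. The spacing was the same in all 4 windows, but the longer run began at -84 and -80 from the starts of Adam20 and Adam25 and at -21 from those of Adam26b and Adam34l. The runs were chosen after the sequences were seen, and a shared run is a description of these letters only. Adam20, Adam26b and Adam34l were called higher in control spermatids than in control spermatocytes, whereas the Adam25 probe (ILMN_2720372) was detected on 1 of the 11 arrays, a control spermatocyte array.

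Several short motifs were searched on both strands of the 16 member windows. The cyclic AMP response element TGACGTCA was in 0 of the 8 windows of genes called higher in control spermatids and 0 of the 8 others, against 1.8% of all windows. Its core TGACG, which lies within the full site, was in 0 of 8 and 1 of 8 windows, against 20.8% of all. The X-box core GTTGCC was in 2 of 8 and 0 of 8 windows, against 12.5% of all, and both hits (Adam26b and Adam34l) began at -51 from the start. The MYB core AACTG was in 6 of 8 and 3 of 8 windows, against 44.8% of all. The TATA box sequence TATAAA was in 4 of 8 and 0 of 8 windows, against 13.6% of all. Its hit in Adam29 began at -219. The others were on the opposite strand, at 37 in Adam34l, -104 in Adam6a and -205 in Adam6b. The Adam6a and Adam6b hits of TATAAA and of the MYB core lay in a stretch that both windows share. The GC content was 35.3 to 48.3% in 7 of the 8 windows of genes called higher in spermatids and 65.3% in the window of Adam15, against a median of 52.7% over all windows and 70.0% in that of Adam17. Of the genes tested and not called, Adam25 (36.7%) and Adam34 (41.7%) lay in the same range. Adam1b (51.0%), Adam8 (52.3%) and Adam22 (66.3%) lay above it.

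Median signal per array was 101 to 118, each array detected 36.2 to 41.4% of all probes, and 23 to 37 of the 65 ADAM probes were detected per array used. The number of arrays limits the precision. Values below are log2 of the background-corrected, quantile-normalized signal of a probe, so that 1 unit is a fold of 2 on that scale, and a value near 4.5 is at the background. They compare arrays for 1 probe and not 1 gene with another. A probe was called when its fitted fold between groups was at least 2 and its adjusted p under 0.05 (limma, fitted to all 4 groups at once with array weights, Benjamini-Hochberg over 28751 probes). Differences are fitted estimates ± their standard error, which weight the arrays and so deviate slightly from differences of plain means. In sorted cells, fewer cells of a type and less RNA per cell cannot be told apart.

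Of 12 tested round spermatid markers, 11 were called higher in control spermatids than in control spermatocytes. Of 12 tested spermatocyte markers, 4 were called lower in control spermatids, 1 was called higher and 7 were not called (median difference -0.38), and Sycp3 and Hormad1 were not detected in any of the 4 groups. The spermatocyte arrays were not alike. The mean of the round spermatid markers was 8.39 and 10.36 on the Baz1a-/- spermatocyte arrays of replicates 2 and 3 and 10.87 on the array left out, against 9.21, 7.57 and 9.20 on control spermatocyte arrays of replicates 1, 2 and 3. Every array detected all 12 of these markers.

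In all, 13 genes had a probe detected on all 11 arrays and 5 genes had none detected on any. The 5 were Adam2, the partner of ADAM1 in fertilin, Adam7, the sheddase Adam10, Adam12 and Adam23, with 8 probes in all, and no level is given for them. The 2 Adam10 probes (ILMN_2460257 and ILMN_1241149) lay between 4.16 and 4.68 on the 11 arrays, and the Adam2 probe (ILMN_2739679) between 4.23 and 4.62, which is the range of the background. Of the 17 genes with more than 1 probe, several had probes that disagreed. Adam29, for example, had 1 probe at background (ILMN_2746402, 4.38 to 4.69) beside 2 that were detected on 11 and 7 arrays.

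**Figure D1:**
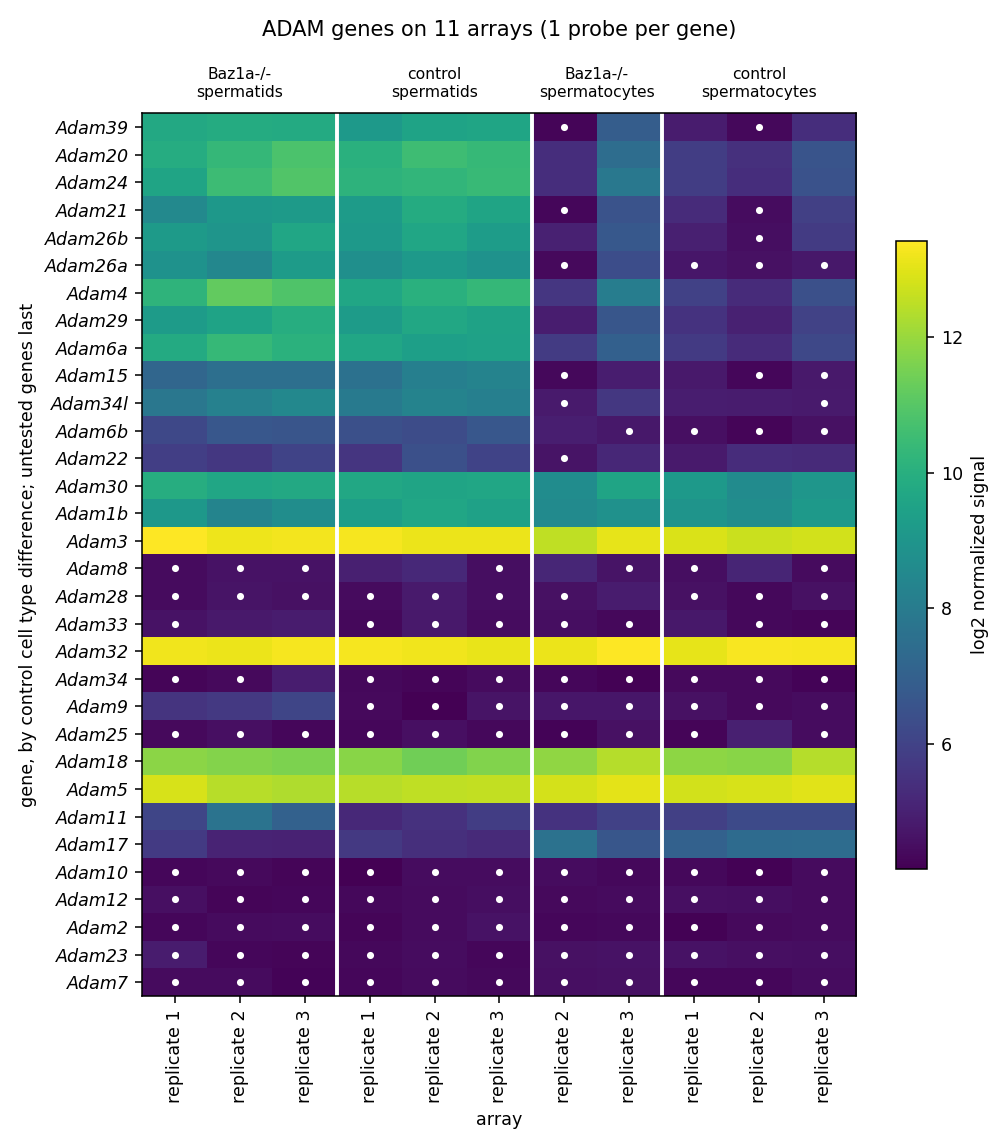
Heat map of the log2 normalized signal of 32 ADAM genes (rows, 1 probe per gene, ordered by the difference between control spermatids and control spermatocytes, untested genes last) on 11 arrays (columns, by group). White dots mark values not detected above background, and the upper 12 rows show high values in both spermatid groups and low ones in most spermatocyte arrays.

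The first comparison asked which ADAM RNAs differ between round spermatids and spermatocytes. In control mice, 18 ADAM probes for 13 genes rose in spermatids and 2 probes, both for Adam17, fell. These are 39.1% and 4.35% of the 46 tested probes, where 13.1% and 15.3% of all tested probes were called higher and lower. The median difference was 0.43 over the 46 ADAM probes and -0.05 over all tested probes. In Baz1a-/- mice, 19 probes for 14 genes rose and 2 fell (41.3% and 4.35%), where 14.9% and 16.6% of all tested probes were called, with median differences of 0.56 and -0.03. The 2 comparisons share no array. Of the probes called higher, 17 were called in both, which is 94.4% of the control list and 89.5% of the Baz1a-/- list, and both Adam17 probes fell in both. The same share over all tested probes is not given here. The paper reports a large overlap over all its probes, so this share is not read as a result about the family.

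Of the 11 tested testases and other testis ADAMs, 8 were called higher in control spermatids and the same number in Baz1a-/- spermatids, none was called lower, and the median differences were 4.23 in controls and 3.51 in Baz1a-/- mice. Adam25 (-0.11 ± 0.18), Adam34 (-0.01 ± 0.17) and Adam30 were the 3 not called in controls. Adam24, the gene of testase 1, had 10.13, 10.26 and 10.38 in control spermatids, against 5.85, 5.37 and 6.50 in control spermatocytes. It was higher in every control spermatid array by more than the spread within either group (difference 4.42 ± 0.40, adjusted p = 7.81e-07). In Baz1a-/- mice Adam24 had 9.58, 10.51 and 10.91 in spermatids, against 5.37 and 7.87 in spermatocytes, a difference of 3.82 ± 0.57 (adjusted p = 0.00012). The groups did not overlap in either genotype, and the Baz1a-/- spermatocyte array of replicate 3 was the higher of its pair.

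Adam39, which follows Adam20 on the chromosome, had 9.17, 9.54 and 9.62 in control spermatids, against 4.87, 4.35 and 5.37 in control spermatocytes. This was the largest difference of the 1-probe-per-gene set in controls (4.65 ± 0.37, adjusted p = 2.38e-07), and in Baz1a-/- mice it was 4.23 ± 0.52 (adjusted p = 2.67e-05). Adam20 was read by 2 probes that gave like results. Its brighter probe (ILMN_2967843) had 10.04, 10.56 and 10.37 in control spermatids, against 5.83, 5.44 and 6.57 in control spermatocytes (difference 4.46 ± 0.35, adjusted p = 2.26e-07), and the other probe (ILMN_1243285) differed by 4.86 ± 0.45. In Baz1a-/- mice the same probes differed by 3.97 ± 0.50 and 4.25 ± 0.64.

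Among the genes of the second testase run, the Adam26b probe had 9.14, 9.64 and 9.29 in control spermatids, against 4.99, 4.49 and 5.78 in control spermatocytes (difference 4.34 ± 0.32, adjusted p = 1.61e-07). Adam26a (ILMN_1229860) had 8.76, 9.12 and 8.88 in control spermatids and was not well above background on any control spermatocyte array, so that it was at least 17.3-fold higher (adjusted p = 1.02e-07). This bound sets the mean of the bright group against the dim probe's own value or the lowest detected signal of its array, whichever is higher. The other 2 Adam26a probes (ILMN_1244723 and ILMN_3004858) were detected on 2 and 1 of the 11 arrays and were not called. Adam34l (ILMN_3133209) had 7.95, 8.30 and 8.17 in control spermatids, against 4.91, 4.86 and 4.82 in control spermatocytes (difference 3.28 ± 0.19, adjusted p = 3.83e-08). Adam34, the next gene of the run, was detected on 1 of 11 arrays by 1 of its 2 probes.

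Adam21 had 9.23, 9.86 and 9.56 in control spermatids, against 5.29, 4.46 and 5.93 in control spermatocytes (difference 4.38 ± 0.38, adjusted p = 5.12e-07). Adam29 (ILMN_1253199) differed by 4.02 ± 0.30 (adjusted p = 1.66e-07), and its second detected probe (ILMN_2985913), which was not well above background in control spermatocytes, was at least 4.34-fold higher. The probes of Adam21, Adam26b, Adam34l and Adam39, and ILMN_1243285 of Adam20, were detected on 2 of the 3 control spermatocyte arrays, so their fitted differences rest in part on values at the background. In Baz1a-/- mice the differences of Adam26b, Adam26a, Adam34l, Adam21 and Adam29 lay between 2.99 and 3.85, and each was called. Adam30 was detected on all 11 arrays by 2 of its 3 probes (ILMN_2890895 and ILMN_2763590) and differed by 0.66 ± 0.19 and 0.66 ± 0.24 in controls, under the fold needed for a call.

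**Figure D2:**
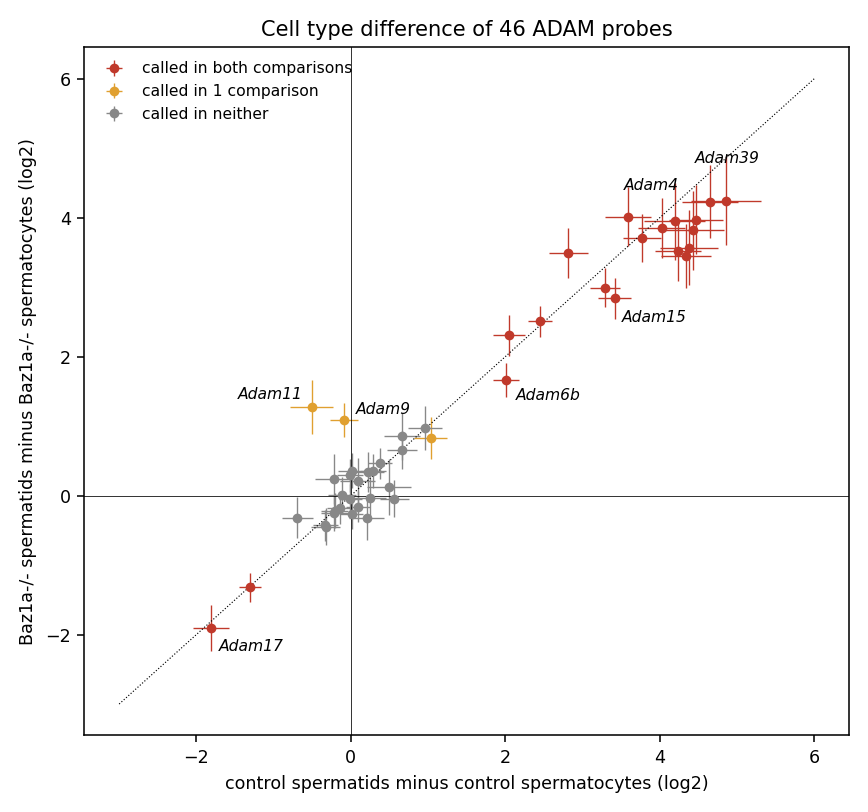
Difference between spermatids and spermatocytes (log2, ± SE) of the 46 tested ADAM probes in Baz1a-/- mice (y axis) and in control mice (x axis), with a dotted line where both are equal. The 19 probes called in both genotypes run along the line from Adam17 at the lower left to the testases at the upper right, the probes of Adam9 and Adam11 were called in Baz1a-/- mice only, and that of Adam22 in controls only.

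The sperm surface ADAMs split. Adam4, Adam6a and Adam6b, of 8 tested genes in this group, were called higher in spermatids in both genotypes. Adam4 had 3 probes and all rose, by 4.19 ± 0.39, 3.59 ± 0.30 and 2.82 ± 0.25 in controls. Adam6a had 9.63, 9.40 and 9.48 in control spermatids, against 5.75, 5.30 and 6.18 in control spermatocytes (difference 3.77 ± 0.24, adjusted p = 6.02e-08). Adam6b was not well above background in control spermatocytes and was at least 3.16-fold higher in control spermatids.

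The other genes of this group were already detected at both stages. Adam3 had 13.27, 13.15 and 13.16 in control spermatids, against 12.90, 12.69 and 12.78 in control spermatocytes. The control groups did not overlap, but the difference of 0.37 ± 0.16 missed the threshold (adjusted p = 0.0681). Adam32, the neighbour of Adam5, had 13.28, 13.22 and 13.11 in control spermatids, against 13.07, 13.34 and 13.29 in control spermatocytes, a difference of -0.01 with a 95% interval of -0.33 to 0.31. Adam5 and Adam18 differed by -0.33 ± 0.16 and -0.33 ± 0.18 and were not called. For Adam1b, the partner of ADAM2 in 1 form of fertilin, the brighter probe (ILMN_3131005) had 9.35, 9.66 and 9.46 in control spermatids, against 8.96, 8.70 and 9.17 in control spermatocytes (difference 0.56 ± 0.19, adjusted p = 0.0238), under the fold needed for a call.

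The sheddases did not share a direction. Adam17 fell in spermatids by both probes. Its brighter probe (ILMN_2594718) had 5.71, 5.41 and 5.25 in control spermatids, against 7.02, 7.40 and 7.45 in control spermatocytes, and fell by 1.81 ± 0.23 (adjusted p = 1.64e-05). In Baz1a-/- mice it had 5.75, 5.10 and 5.04 in spermatids, against 7.64 and 6.65 in spermatocytes, and fell by 1.91 ± 0.33 (adjusted p = 0.000346). The second probe (ILMN_1243942) fell by 1.30 ± 0.14 and 1.32 ± 0.21. Without background correction the brighter probe's difference was -0.87 in controls and -0.88 in Baz1a-/- mice, short of the fold needed.

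Adam15 rose in spermatids by 2 of its 4 tested probes. The brighter one (ILMN_3139103) had 7.60, 8.16 and 8.31 in control spermatids, against 4.80, 4.33 and 4.81 in control spermatocytes, where 1 of 3 arrays detected it. The fitted difference of 3.41 ± 0.21 (adjusted p = 4.3e-08) therefore rests on control spermatocyte values at the background. The other 2 tested probes (ILMN_1239236 and ILMN_2718144) differed by 0.22 and 0.25 and were not called. Adam8 and Adam33 were detected on few arrays and were not called, and neither was Adam9 in controls (difference -0.09 ± 0.18). Of the neural members, Adam22 had 1 probe called in controls (ILMN_2759398, at least 1.68-fold higher in control spermatids, adjusted p = 0.00102). That bound is under the fold of 2 needed for a call. Leaving out control spermatid replicate 2 or 3, or control spermatocyte replicate 1 or 2, ended that call, and it was not called in Baz1a-/- mice (difference 0.82 ± 0.30, adjusted p = 0.0439).

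The second comparison asked what loss of Baz1a changed in round spermatids. Of the 46 ADAM probes, 2 rose in Baz1a-/- spermatids, for Adam9 and Adam11, and 0 fell. The share called higher was 4.35%, where 2.91% of all tested probes were called higher and 1.18% lower. At an unadjusted limma p under 0.05, 6 of the 46 ADAM probes were higher and 2 lower, beside 2640 and 2974 of all 28751 tested probes. The adjusted p alone was passed by 3 ADAM probes, beside 2164 of all tested probes. The Baz1a-/- arrays lay wholly above the control arrays for 7 ADAM probes and wholly below for 4, where this held for 10.6% and 12.4% of all tested probes. The median difference was 0.06 over the ADAM probes and -0.03 over all tested probes.

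Adam9, the last gene of the chromosome 8 run that starts with Adam18, was detected in Baz1a-/- spermatids and in no other group. Its single probe (ILMN_2649502) had 5.56, 5.71 and 6.09 in Baz1a-/- spermatids, against 4.39, 4.18 and 4.64 in control spermatids. No control spermatid array detected it, so it was at least 1.97-fold higher in Baz1a-/- spermatids, with a fitted difference of 1.40 ± 0.19 (adjusted p = 0.00046). The probe passed the detection filter only through the group where it is high. Its bound is under the fold of 2 needed for a call, so the call rests on control values at the background. The Baz1a-/- spermatocyte arrays had 4.74 and 4.74, and control spermatocytes 4.59, 4.42 and 4.45, none of them detected. Within Baz1a-/- mice, Adam9 was at least 1.93-fold higher in spermatids than in spermatocytes (adjusted p = 0.00308), a bound that is likewise under the fold of 2. With an offset of 50 in the background correction, its genotype difference was 0.71 (adjusted p = 0.00178), short of the fold needed.

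Adam11 was detected in every group by its brightest probe (ILMN_1255996). It had 6.10, 7.67 and 7.03 in Baz1a-/- spermatids, against 5.24, 5.50 and 5.85 in control spermatids. The groups did not overlap, but the Baz1a-/- arrays spread widely, and the lowest of them was 6.10, close to the highest control at 5.85. The difference was 1.44 ± 0.29, a fold of 2.7 (adjusted p = 0.00867). Without Baz1a-/- spermatid replicate 2 it was 0.99 (adjusted p = 0.0957), and without replicate 3 it was 1.30 (adjusted p = 0.0664), and each of these ended the call. The other 3 tested Adam11 probes (ILMN_2434200, ILMN_2812954 and ILMN_2629383) differed by 0.28, 0.32 and 0.15, with adjusted p of 0.553 to 0.753.

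Some markers of somatic testis cells were also called higher in Baz1a-/- spermatids, where 2.91% of all tested probes were. Of 10 tested markers of myoid cells and fibroblasts, 2 were called higher in Baz1a-/- spermatids, and the summed signal of the list was 1907 to 2043 there, against 453 to 563 in control spermatids. Myh11, Tagln, Cnn1, Des, Col1a1 and Pdgfra were among the 12 genes on the array and were not detected in any Baz1a-/- spermatid array. Of 9 tested endothelial markers 2 were called higher, with summed signals of 1528 to 1828 against 353 to 465, and Kdr, Emcn, Esam and Eng were not detected in Baz1a-/- spermatids. Of 10 tested macrophage markers 2 were called higher, with summed signals of 699.9 to 1053 against 368 to 388, and C1qc was not detected. Of 4 tested Leydig cell markers 2 were called higher, with summed signals of 449.7 to 2099.8 against 200.2 to 881, and Star, Hsd3b1, Hsd3b6 and Hsd17b3 were not detected. Of 6 tested Sertoli cell markers 1 was called higher, with summed signals of 366 to 599.9 against 285 to 604, and Amh, Gata4 and Fshr were not detected. A summed signal is carried by the brightest genes of a list. The median differences were 0.36 for myoid cells and fibroblasts, 0.12 for endothelial, 0.19 for macrophage, 1.14 for Leydig and 0.23 for Sertoli cell markers. The endothelial list holds Cldn5, which the paper names among the genes up in mutant spermatids. The part of these somatic cells in the Adam9 and Adam11 results was not tested.

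**Figure D3:**
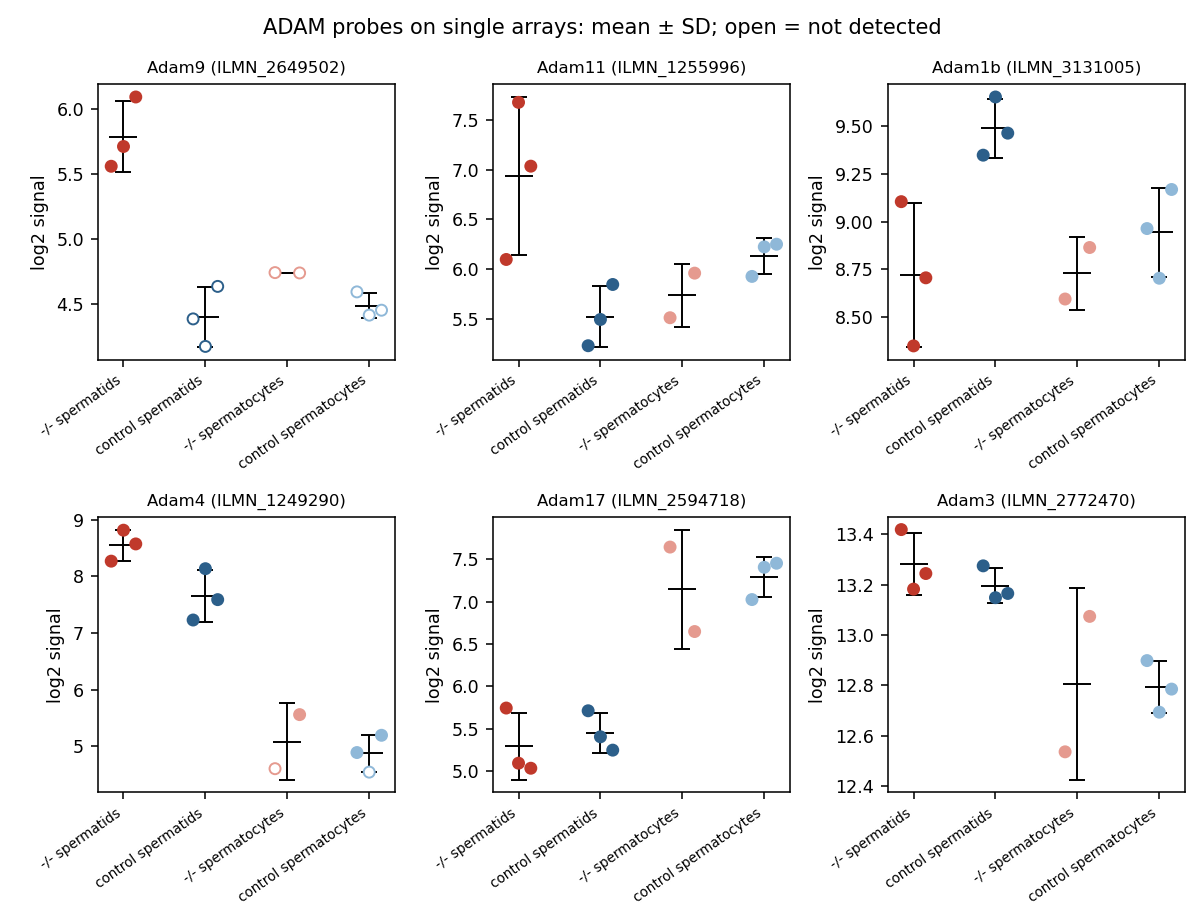
Log2 signal of 6 ADAM probes on single arrays (points, open where not detected) with the mean and SD of each of the 4 groups (-/- is Baz1a-/-, n = 3, 3, 2 and 3). Adam9 is detected in Baz1a-/- spermatids only, the Adam11 points of Baz1a-/- spermatids spread from 6.10 to 7.67, and Adam17 is low in both spermatid groups.

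Adam1b was the one ADAM gene below the control level with an adjusted p under 0.05. Its brighter probe (ILMN_3131005) had 9.10, 8.35 and 8.70 in Baz1a-/- spermatids, against 9.35, 9.66 and 9.46 in control spermatids. All 3 Baz1a-/- arrays were below the 3 controls, and the difference was -0.81 ± 0.20 (adjusted p = 0.023), which passes a fold of 1.5 and not the fold of 2 needed for a call. The second Adam1b probe (ILMN_3054283) had 7.07, 5.79 and 6.12 in Baz1a-/- spermatids, against 6.48, 7.04 and 6.69 in control spermatids, and the groups overlapped (difference -0.51 ± 0.30, adjusted p = 0.404).

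All 3 Adam4 probes had positive differences that missed the threshold, and Adam4 is named here after its values were seen. The probe ILMN_1249290 had 8.27, 8.81 and 8.57 in Baz1a-/- spermatids, against 7.23, 8.13 and 7.59 in control spermatids (difference 0.90 ± 0.26, adjusted p = 0.0577). Without control spermatid replicate 2, the highest of the controls, this probe was called. The probe ILMN_2971964 had 9.65, 10.24 and 9.91 in Baz1a-/- spermatids, against 8.73, 9.05 and 9.08 in control spermatids (difference 0.97 ± 0.32, adjusted p = 0.0882), and ILMN_1235132 overlapped between the groups (difference 0.75 ± 0.42, adjusted p = 0.368). Adam6a had 9.83, 10.36 and 10.06 in Baz1a-/- spermatids, against 9.63, 9.40 and 9.48 in control spermatids, and the difference of 0.62 ± 0.26 missed the threshold (adjusted p = 0.196).

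For the other ADAM genes the intervals leave room for modest differences. Adam3 had 13.42, 13.18 and 13.24 in Baz1a-/- spermatids, against 13.27, 13.15 and 13.16 in control spermatids, a difference of 0.08 with a 95% interval of -0.27 to 0.44. Adam32, Adam5 and Adam18 differed by 0.04, -0.02 and 0.07, with standard errors of 0.16 to 0.20. Adam17 (ILMN_2594718) differed by -0.18 ± 0.24 (95% interval -0.71 to 0.34). Over the 11 tested testases and testis ADAMs the median difference was 0.08, the values ran from -0.58 for Adam21 to 0.34 for Adam39, and none was called.

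**Figure D4:**
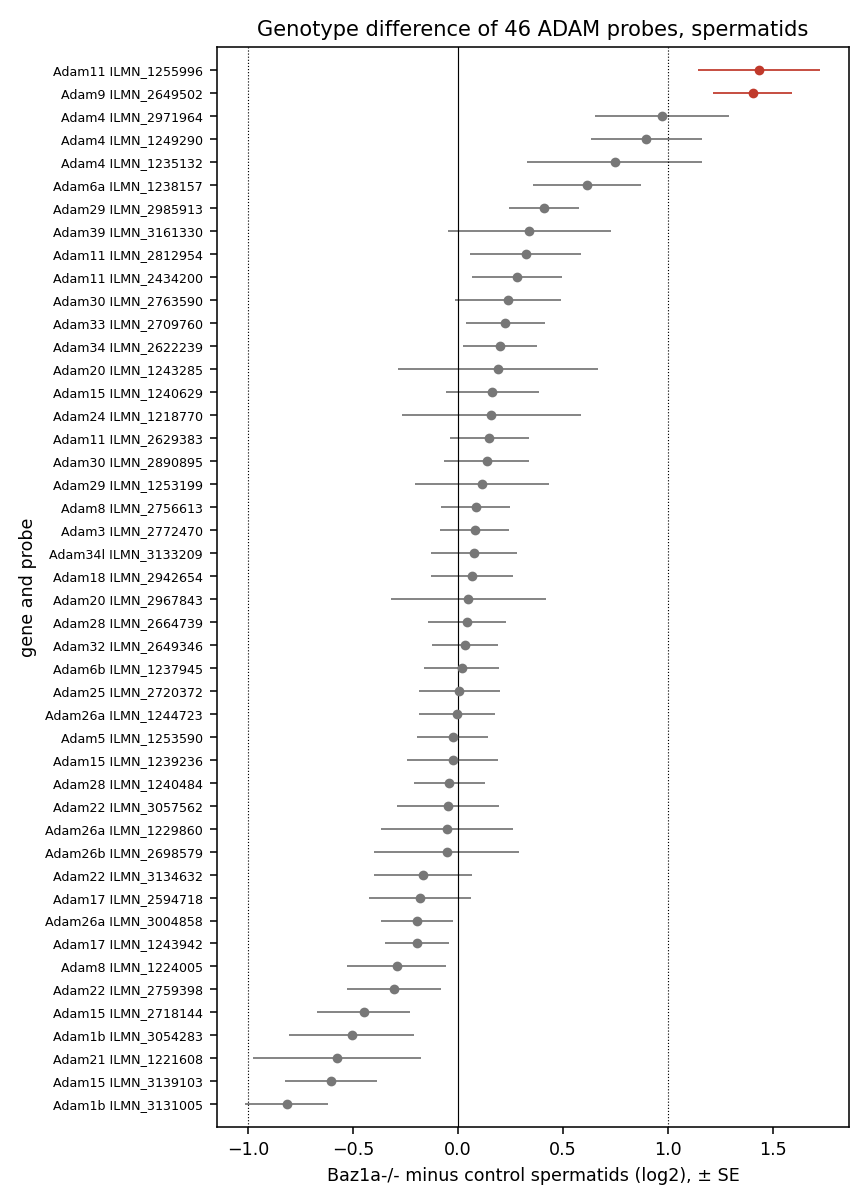
Fitted difference between Baz1a-/- and control spermatids (log2, ± SE) of the 46 tested ADAM probes, sorted, with dotted lines at a fold of 2 in either direction. The called probes of Adam11 (1.44) and Adam9 (1.40) stand at the top, followed by the 3 Adam4 probes, and Adam1b (-0.81) is at the bottom.

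The last comparison of groups was that of the genotypes in spermatocytes. No ADAM probe was called by limma, where 0.261% and 0.15% of all tested probes were called higher and lower. An unadjusted p under 0.05 was reached by 0 ADAM probes, beside 1576 of all 28751 tested probes. The differences ran from -0.35 for Adam11 to 0.996 for Adam4 (ILMN_1235132), with a median of 0.08 over the ADAM probes and -0.01 over all. Adam4 by that probe had 5.63 and 8.10 in Baz1a-/- spermatocytes, against 5.94, 5.31 and 6.44 in control spermatocytes, so the Baz1a-/- pair lay on both sides of the controls. The count was 9 with the array that was left out. The share of all tested probes called in that setting is not given here, so the 9 is not read as a result about the family. Leaving out Baz1a-/- spermatocyte replicate 2 also changed the result, but 1 array then remained in the group, and no count is given. With the left-out array the probes were those of Adam4 (2), Adam6a, Adam20 (2), Adam24, Adam26a, Adam26b and Adam39. All of them were called higher in control spermatids than in control spermatocytes.

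These probes largely followed the spermatid markers from array to array. Over the 12 genes whose brightest probe was called higher in control spermatids, the median value was 4.91 and 6.68 on the Baz1a-/- spermatocyte arrays of replicates 2 and 3, against 5.14, 4.72 and 5.86 on the control spermatocyte arrays of replicates 1, 2 and 3. Baz1a-/- replicate 3 exceeded the highest control spermatocyte array for 12 of the 12 genes and replicate 2 for 1. The share of all tested probes that did so is not given, and the 12 genes were picked in part for low control spermatocyte values. These counts are therefore not read as a result about the family. Of the arrays used, the mean of the round spermatid markers was likewise highest on Baz1a-/- replicate 3, as given above. Control replicates 1 and 3 had like marker means, 9.21 and 9.20, but medians of 5.14 and 5.86. By the paper's count of sorted cells, control replicate 1 was the least pure of these spermatocyte samples and control replicate 3 among the purest. By the same count Baz1a-/- replicate 2 was the purest, and Baz1a-/- replicate 3 was less pure than control replicates 2 and 3. In spermatids the same median was 9.23, 9.31 and 9.74 in Baz1a-/- mice and 9.20, 9.59 and 9.48 in controls. The part of spermatid RNA in the spermatocyte values was not tested.

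**Figure D5:**
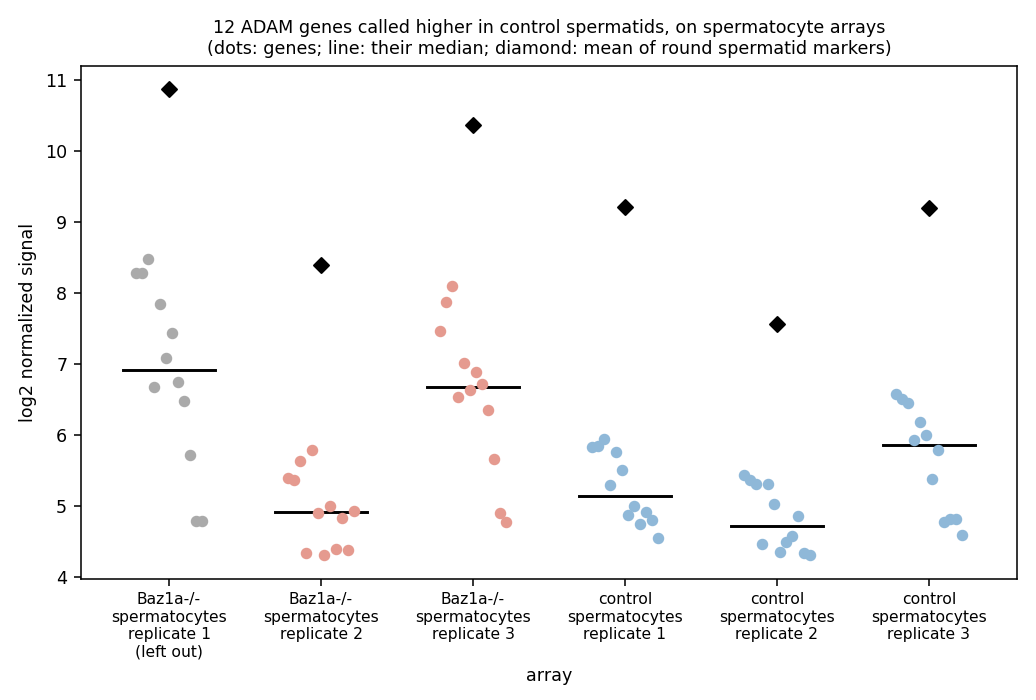
Log2 signal of the 12 ADAM genes called higher in control spermatids (dots, 1 probe per gene) on the 3 Baz1a-/- and 3 control spermatocyte arrays, with their median (line) and the mean of the round spermatid markers (diamond). Baz1a-/- replicate 3 and the array left out have medians of 6.68 and 6.91, above the 4.72 to 5.86 of the controls, and the diamonds are highest on the same arrays.

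Whether Baz1a loss acted differently on spermatids and spermatocytes was tested directly, and no ADAM probe was called (0.129% and 0.0243% of all tested probes were called higher and lower). At an unadjusted p under 0.05 limma gave 2 ADAM probes, beside 2024 of all 28751 tested probes. The Adam11 probe ILMN_1255996 had a genotype effect larger in spermatids than in spermatocytes by 1.78 ± 0.48 (adjusted p = 0.243), and the Adam9 probe by 1.18 ± 0.31 (adjusted p = 0.212). Neither is thus shown to respond to Baz1a loss differently in the 2 cell types.

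Genes that act with ADAM proteins were read from lists. Of 13 tested genes that help ADAM3 reach the sperm surface, 4 rose and 3 fell in control spermatids against control spermatocytes, where 13.1% and 15.3% of all tested probes were called higher and lower. Pdilt and Calr3, chaperones of the testis endoplasmic reticulum, rose by 4.61 ± 0.49 and 3.75 ± 0.43, and Tex101, a surface protein of germ cells, fell by 4.25 ± 0.31. In Baz1a-/- against control spermatids 1 of the 13 rose, Prss37, a serine protease-like protein of the testis, where 2.91% of all tested probes were called higher. It had 8.57, 9.31 and 8.08 in Baz1a-/- spermatids, against 7.77, 7.16 and 6.95 in control spermatids, with no overlap (difference 1.39 ± 0.30, adjusted p = 0.0114). The median difference of the list was -0.10.

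Of 15 tested regulators of sheddases, 3 rose in Baz1a-/- spermatids and 0 fell, with a list median of -0.03, where 2.91% of all tested probes were called higher and 1.18% lower. They were Timp4, an inhibitor of metalloproteases (1.97 ± 0.30, adjusted p = 0.00124), Tspan17, a tetraspanin that binds ADAM10 (1.79 ± 0.22, adjusted p = 0.000309), and Pcsk6, a proprotein convertase (1.63 ± 0.41, adjusted p = 0.0289). Timp4 was detected on all 3 Baz1a-/- spermatid arrays, at 5.69, 7.27 and 7.17, against 1 of 3 control spermatid arrays, at 4.74, 4.80 and 4.97. Tspan17 had 6.97, 7.36 and 7.86 in Baz1a-/- spermatids, against 5.29, 5.81 and 5.81 in control spermatids. Of 17 tested substrates of ADAM10 and ADAM17, 1 rose, the adhesion molecule Nectin1 (2.01 ± 0.29, adjusted p = 0.000847), and 0 fell. None of the 3 tested LGI genes and none of 13 tested integrins and sperm-egg partners was called between the genotypes in spermatids. In control spermatids against control spermatocytes, 3 of these 13 rose, beside 13.1% of all tested probes, the sperm proteins Spam1 (4.88 ± 0.55), Izumo1 (4.43 ± 0.46) and Zp3r (4.39 ± 0.34).

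The Adamts family, secreted relatives with thrombospondin repeats, served as a comparison. It had 45 probes for 21 genes, of which 24 probes for 17 genes were tested. In control spermatids against control spermatocytes 1 of its probes rose (4.17%, against 13.1% of all tested probes) and 1 fell (4.17%, against 15.3%). This stood beside 18 and 2 of the 46 ADAM probes. In Baz1a-/- against control spermatids 1 probe rose (4.17%, against 2.91% of all tested probes) and 0 fell, against 1.18%. The probe that rose was that of Adamtsl2 (1.65 ± 0.25, adjusted p = 0.00116). It was detected on 3 of 3 Baz1a-/- spermatid arrays and 1 of 3 control spermatid arrays.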

How the data were processed

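RNA of sorted spermatids and spermatocytes was hybridised to Illumina MouseWG-6 v2.0 arrays. The authors deposited linear bead intensity per probe without background subtraction, and a detection p-value per probe and array, exported with GenomeStudio 2011.1 per the labels (BeadStudio in the methods). The authors also deposited log2 values made by normexp background correction and quantile normalization with limma 3.12.1. Here the same steps were run on the intensities with limma 3.58.1 (R 4.3.3), an offset of 16 and negative controls inferred from the detection p-values, which came within 0.0244 of the deposited log2 values. All 12 arrays were normalized together, and 11 entered the fit. Probes with a detection p under 0.05 on at least 1 of the 11 arrays were tested with lmFit and eBayes on the 4 group means, with weights per array. Gene names come from the platform annotation, in which 34885 probes have 1 symbol, 18 several and 10378 none.

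Members and gene lists were chosen with earlier results of these data known. Genes were named by a rule: every ADAM probe called between genotypes, the 10 largest rises and falls among called genes between cell types (the probe with the highest mean), up to 4 called genes per further list, and Adam1a, Adam1b, Adam2, Adam3, Adam10 and Adam17 (no probe has the symbol Adam1a in the platform annotation, and a probe that carries it in the study's own list was not followed). Array replicates are separate mice. The labels tie spermatids and spermatocytes of 1 number and genotype to 1 mouse. Their deviations from group means correlated at -0.0423 to 0.227, with a consensus correlation of 0.0912 by mouse. Alternatives were another background correction, offset, scaling or detection filter, no array weights, another fold, replicate blocks and leaving out each array. Promoter windows were compared by global alignment (match 1, mismatch -1, gap -2). Spermatogonia, red blood cell and epididymal markers were read as well. None of the 7, 3 and 4 tested genes of these lists was called between genotypes in spermatids.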

Additional observations from a re-analysis of the deposited data

Results flagged for a closer look

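A signal of the genes called higher in spermatids was seen on the Baz1a-/- spermatocyte array that was set aside. On it, 11 of the 12 ADAM genes exceeded the highest control spermatocyte array, and the median log2 value of the 12 was 6.91, against 4.72 to 5.86 on the control spermatocyte arrays. The share of all tested probes that exceeded it is not given, and the 12 genes were picked in part for low control spermatocyte values. No group held enough arrays for a test of outlying values.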

How the results depend on the processing

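Of 29 named differences, each under 25 alternatives (725 values), 715 kept their direction and their side of the threshold, 9 no longer passed, 1 passed newly and 0 reversed. Of the 9, 7 were between the genotypes in spermatids, where Adam9 and Adam11 were the only calls. The named differences are mostly the largest ones between cell types, and several alternatives left out an array of a group outside the comparison. The number of ADAM probes called between Baz1a-/- and control spermatids, 2 in the report, was 0 without background correction, 1 with an offset of 50, 0 when the fold of 2 was itself tested, and 1 to 3 when each array was left out in turn. Without Baz1a-/- spermatid replicate 2 or 3 it was 1, and Adam11 was lost. The cause was not tested for the first 2. For spermatocytes the count, 0 in the report, was 9 with the array that was left out, and it stayed 0 without any array of the other groups. Leaving out Baz1a-/- replicate 2 changed it, but 1 array then remained in the group, and no count is given. Settings that left 1 array in a group set aside, counts between cell types stayed within 1.5 times, at 14 to 24 in controls and 15 to 23 in Baz1a-/- mice. The test of the difference between genotype effects gave 0 under the alternatives counted. With the mouse as a random replicate block the counts were 2 between the genotypes in spermatids, 20 between cell types in controls and 21 in Baz1a-/- mice, and with the replicate number as a fixed block 2, 19 and 22. Deviations from the group means of same-numbered arrays of the genotypes correlated at 0.312, 0.0744 and 0.145 in spermatids and at 0.537 and 0.421 in spermatocytes, against -0.537 to 0.184 for arrays of different numbers. The 2 Baz1a-/- spermatocyte arrays deviate from their mean by equal and opposite amounts, so -0.537 is 0.537 with its sign turned. Deviations within a group also sum to 0, so same-number and different-number values are not independent. Baz1a-/- spermatid replicate 3 correlated best with control replicate 2 (0.184), so the arrays did not settle whether a number marks a litter. Median scaling moved the median of all probes to -0.156 between genotypes in spermatocytes, to -0.103 between cell types in controls and to 0.169 for the difference between genotype effects.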
